A study of Mus musculus with 6 samples.

Results

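The subject is a set of 7 mouse genes that build or operate the inflammasome: the sensors Mefv, Nlrp3 and Nlrc4, the adaptor Pycard, the caspases Casp1 and Casp4, and the pore protein gene Gsdmd. They are 7 of 19752 genes named on the array, and each was found by the RefSeq accession that its probe carries. The set was chosen with its levels and its HRF to PBS ratios already known, so those values are given as a description with no test. Each gene has 1 array value per group and no replicate.

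Whole lung of C57BL/6 mice was measured on 6 Agilent 1-colour arrays, 1 array for each of 6 groups. The groups are mice labelled FcRg KO (FcRg-/-) given HRF, mice labelled FceRIa KO (FceRIa-/-) given HRF, wild type (WT) mice given HRF, and the same 3 genotypes given PBS. HRF is mouse histamine-releasing factor, given through the nose, and the sample descriptions of those arrays write it as mHRF-His. The labels give no dose, time, age, sex or number of mice per array.

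An inflammasome is a protein platform that forms in a cell, mainly in macrophages and neutrophils, when a sensor detects infection or damage. The sensor recruits the adaptor ASC, which gathers caspase-1. Active caspase-1 cuts the precursors of the cytokines IL-1β and IL-18 and cuts gasdermin D, whose freed end forms pores in the cell membrane. The sensors and the cytokine precursors are themselves made in larger amounts after signals from toll-like receptors and cytokines, a step called priming.

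Levels are log2 of the processed signal relative to the 75th percentile of the same array, so that 0 marks that percentile and a step of 1 is 2-fold. Levels of different probes are not set against each other. All 10 probes of the 7 genes were well above background on all 6 arrays. The scanner software's own error estimate for a log2 ratio between 2 arrays was between 0.20 and 0.28 for these probes, and it covers the spot measurement only, not the spread between mice. In whole lung, fewer cells of a type and less RNA per cell cannot be told apart.

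Between 67.5% and 79.6% of the 59305 spots other than controls were well above background on an array, and no spot was saturated. The lung epithelial genes Scgb1a1, Sftpc and Sftpa1 stood between 7.31 and 8.41 on all 6 arrays, as the tissue label has it. Fcer1g, the gene of the FcRg chain, stood at 4.32 and 4.14 on the HRF and PBS arrays labelled FcRg KO, against 4.61 and 3.93 in WT. Fcer1a, the gene of the FceRIa chain, stood at -1.16 and -0.90 on the HRF and PBS arrays labelled FceRIa KO, against -4.19 and -4.48 in WT. Neither gene was lower under its own knockout label on both arrays, and whether these probes lie in the deleted parts is not known here, so groups are named by their labels. Tpt1, which encodes HRF, had a log2 HRF to PBS ratio of at most 0.32 for its 3 probes over the 3 genotype labels.

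Promoters of Mefv and Casp4 are shown because these were the 2 members past the 2-fold line in WT. Each window runs from 250 bases before to 50 bases after a RefSeq start site (build GRCm38.p6), 5′ to 3′ along the gene. Of the 7 genes, 6 had such a window. Capitals mark a match to the NF-kB consensus, the only searched motif found in either window.
Mefv (chr16:3718075-3718374, minus strand): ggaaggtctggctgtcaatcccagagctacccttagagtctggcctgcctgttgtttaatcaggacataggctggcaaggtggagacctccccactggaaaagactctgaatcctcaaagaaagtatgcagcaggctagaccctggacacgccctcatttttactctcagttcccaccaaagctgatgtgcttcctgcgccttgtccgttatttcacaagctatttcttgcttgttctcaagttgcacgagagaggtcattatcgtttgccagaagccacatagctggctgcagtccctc
Casp4 (chr9:5308599-5308898, plus strand): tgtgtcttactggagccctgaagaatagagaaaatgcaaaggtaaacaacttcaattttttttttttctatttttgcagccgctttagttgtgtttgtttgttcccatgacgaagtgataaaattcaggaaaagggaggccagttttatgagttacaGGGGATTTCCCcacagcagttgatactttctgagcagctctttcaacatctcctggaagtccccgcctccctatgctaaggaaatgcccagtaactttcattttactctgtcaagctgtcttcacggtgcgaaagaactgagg

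Beside the NF-kB consensus, the motifs searched on both strands were the interferon-stimulated response element (written as GAAA, any 2 bases and GAAA), the STAT site TTCNNNGAA, the C/EBP site TTGCNNAA, the AP-1 site TGANTCA, the PU.1 site GAGGAAGT and the TATA box letters TATAAA. The Casp4 window held 2 overlapping NF-kB matches, whose first bases lie at -93 and -92 from the start site. Of 32817 promoter windows of the same length, 4.5% held an NF-kB match. A second Casp4 window, shifted by a few bases, held the same stretch. Nlrp3 had a match in 1 of its 2 windows, at -186 from the start site. None of the 7 motifs was found in the windows of Mefv and Casp1, which says only that these letters are not there. The NF-kB consensus was widened after the windows had been seen, and a match is neither a bound site nor a cause of any level given here.

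Mefv had the largest HRF to PBS ratio of the set. Mefv encodes pyrin, a sensor that responds when bacterial toxins inactivate the GTPase RhoA, and mutations of the human gene cause familial Mediterranean fever. Its levels were -0.30 and -0.71 on the HRF and PBS arrays labelled FcRg KO, -0.13 and -0.26 under the FceRIa KO label, and 2.14 and -1.01 in WT. The WT HRF array stood apart. It lay 2.28 log2 units, or 4.84-fold, above the highest of the other 5 arrays, which spanned 0.88 among themselves. The ratio of HRF to PBS was 1.33-fold on the arrays labelled FcRg KO, 1.09-fold under the FceRIa KO label and 8.93-fold in WT, where Mefv ranked 28 from the top of 17435 genes compared.

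A second probe, designed on another Mefv transcript, was also highest on the WT HRF array. Its levels were -3.48 and -3.78 on the HRF and PBS arrays labelled FcRg KO, -3.33 and -3.33 under the FceRIa KO label, and -1.20 and -3.74 in WT. Its log2 ratios of HRF to PBS were 0.31 under FcRg KO, 0.00 under FceRIa KO and 2.54 in WT.

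On the PBS arrays, the FcRg KO level of Mefv was 1.23 times and the FceRIa KO level 1.69 times the WT level, and the second Mefv probe gave 0.972 and 1.33 times. On the HRF arrays the log2 differences from WT were -2.45 for FcRg KO and -2.28 for FceRIa KO. The difference between labels thus lay mainly on the HRF side.

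**Figure D1:**
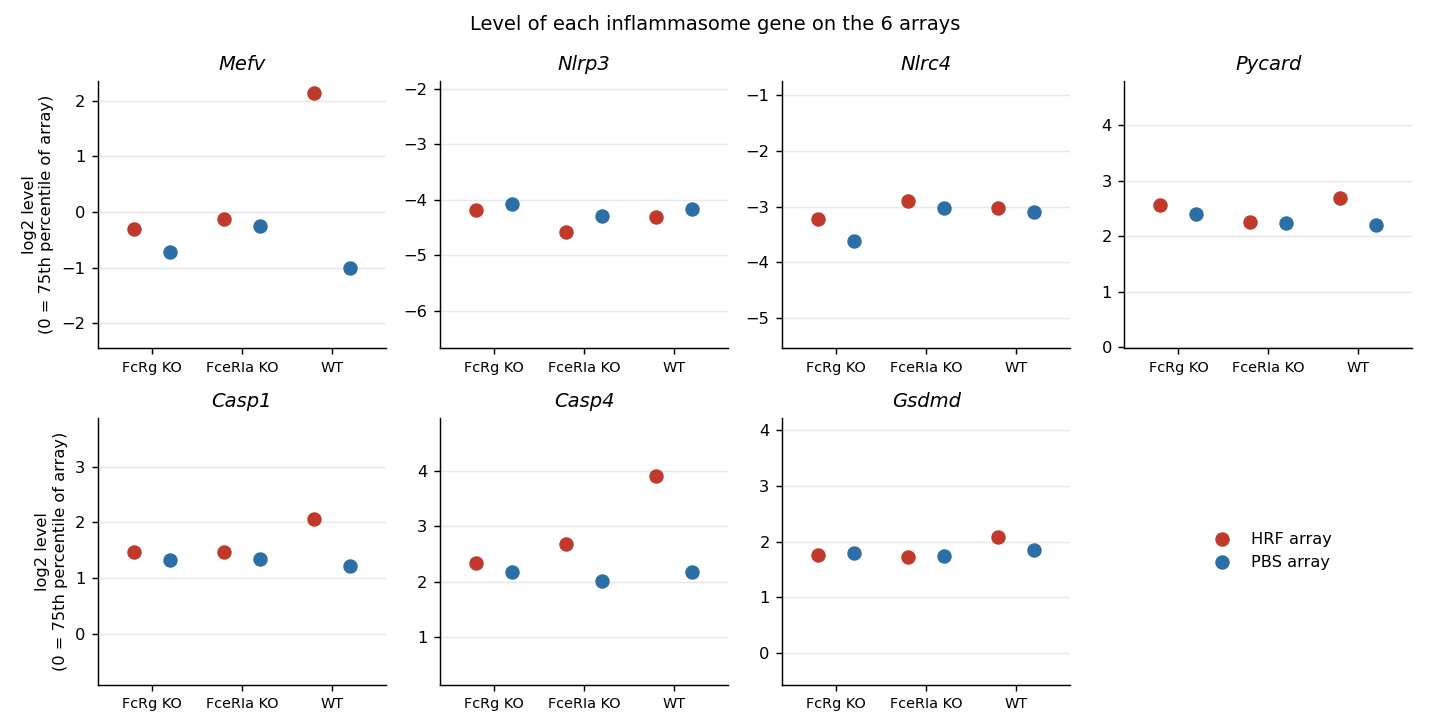
Log2 level of each of the 7 genes on the 6 arrays (y axis, 0 at the 75th percentile of the array; every panel spans the same number of log2 units), by genotype label (x axis), with 1 point per array, HRF in red left of PBS in blue. The WT HRF points of Mefv (2.14) and Casp4 (3.90) lie above all other points of their panels. The 6 points span 0.36 log2 units for Gsdmd, 0.47 for Pycard, 0.52 for Nlrp3, 0.72 for Nlrc4 and 0.83 for Casp1.

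The other 2 sensors showed no such difference. Nlrp3 encodes the sensor that responds to potassium loss from the cell and to many forms of damage. Its levels were -4.18 and -4.07 on the HRF and PBS arrays labelled FcRg KO, -4.58 and -4.29 under the FceRIa KO label, and -4.31 and -4.16 in WT. The log2 ratios of -0.12 under FcRg KO, -0.29 under FceRIa KO and -0.15 in WT were all below 0 and near the software's error. Its second probe pointed the other way, with log2 ratios of 0.16 under FcRg KO, 0.55 under FceRIa KO and 0.41 in WT. The 2 probes leave the direction of Nlrp3 unsettled, and scaling on the array median, which shifts every gene alike, gave 0.07 in WT beside a median of 0.17 over all genes.

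Nlrc4 encodes the sensor that, together with NAIP proteins, detects bacterial flagellin and secretion needles. Its levels were -3.22 and -3.62 on the HRF and PBS arrays labelled FcRg KO, -2.89 and -3.02 under the FceRIa KO label, and -3.02 and -3.09 in WT. The lowest of these was the PBS array labelled FcRg KO, and the log2 ratios were 0.40 under FcRg KO, 0.13 under FceRIa KO and 0.07 in WT. No ratio of Nlrc4 or Nlrp3 reached 2-fold under any genotype label.

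**Figure D2:**
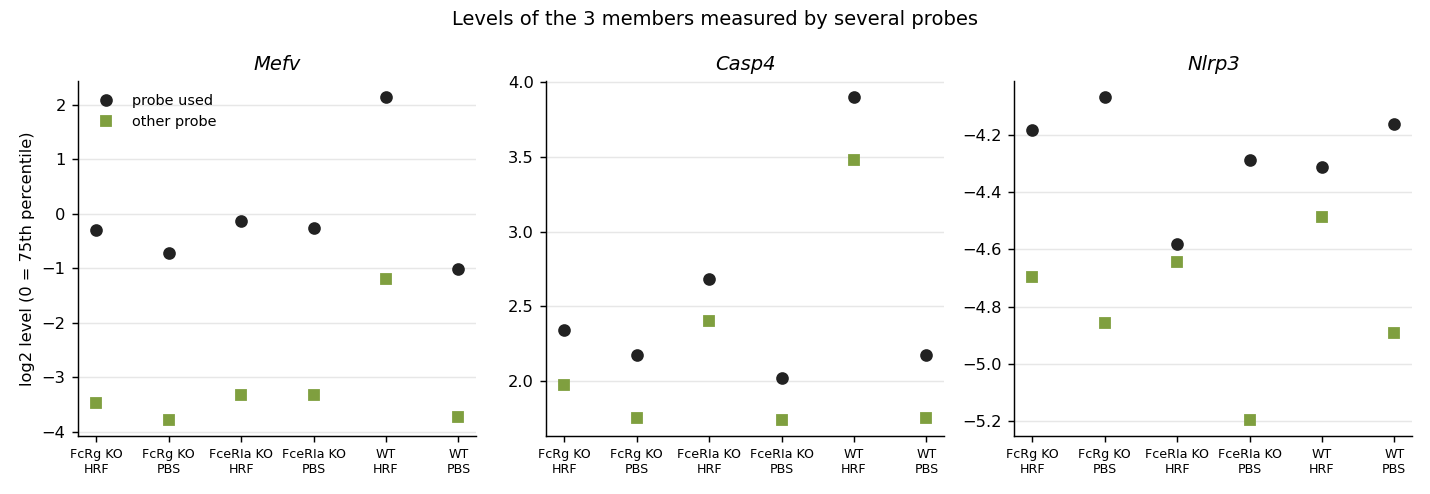
Log2 level (y axis, 0 at the 75th percentile of the array; the 3 panels have different ranges) on the 6 arrays (x axis) for the 3 genes measured by 2 probes each, black circles for the probe used and green squares for the other. Both probes of Mefv and both of Casp4 are highest on the WT HRF array, while the 2 probes of Nlrp3 differ in the direction of HRF over PBS under each label.

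Pycard encodes ASC, the adaptor through which pyrin and NLRP3 reach caspase-1. Its levels were 2.56 and 2.39 on the HRF and PBS arrays labelled FcRg KO, 2.26 and 2.23 under the FceRIa KO label, and 2.68 and 2.21 in WT. WT HRF was the highest array, 0.12 log2 units above the next, which is less than the software's error. The HRF to PBS ratio was 1.12-fold on the arrays labelled FcRg KO, 1.02-fold under the FceRIa KO label and 1.39-fold in WT.

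Casp4 had the second largest ratio. In the mouse it encodes caspase-11, which binds bacterial lipopolysaccharide inside the cell and cuts gasdermin D without caspase-1. Its levels were 2.34 and 2.17 on the HRF and PBS arrays labelled FcRg KO, 2.68 and 2.02 under the FceRIa KO label, and 3.90 and 2.17 in WT. The 3 PBS arrays lay within 0.15 log2 units of each other, and each HRF array lay above all of them. The HRF to PBS ratio was 1.13-fold on the arrays labelled FcRg KO, 1.58-fold under the FceRIa KO label and 3.31-fold in WT. Its second probe gave 1.17-fold under FcRg KO, 1.58-fold under FceRIa KO and 3.31-fold in WT. On the HRF arrays Casp4 stood at log2 differences from WT of -1.56 for FcRg KO and -1.22 for FceRIa KO.

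Casp1, which like Casp4 lies on chromosome 9, encodes caspase-1 itself. Its levels were 1.48 and 1.32 on the HRF and PBS arrays labelled FcRg KO, 1.47 and 1.34 under the FceRIa KO label, and 2.05 and 1.23 in WT. The 5 arrays other than WT HRF spanned 0.25 log2 units, and WT HRF lay 0.58 above the highest of them. The HRF to PBS ratio was 1.11-fold on the arrays labelled FcRg KO, 1.09-fold under the FceRIa KO label and 1.78-fold in WT, short of the 2-fold line. With scaling on the array median the WT log2 ratio of Casp1 was 1.05, past the line.

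Gsdmd encodes gasdermin D, the pore former. Its levels were 1.77 and 1.80 on the HRF and PBS arrays labelled FcRg KO, 1.72 and 1.74 under the FceRIa KO label, and 2.09 and 1.86 in WT. It is the only member printed at several spots, with 9 usable spots per array, so its spot spread can be seen. In WT the spots lay between 2.01 and 2.15 on the HRF array, against 1.79 to 1.92 on the PBS array, without overlap. Under the FcRg KO label they lay between 1.70 and 1.83 on the HRF array and between 1.76 and 1.84 on the PBS array, and overlapped. The SD over spots was between 0.03 and 0.05 on each array. This spread is technical, and the WT ratio of 1.17-fold has no replicate check.

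**Figure D3:**
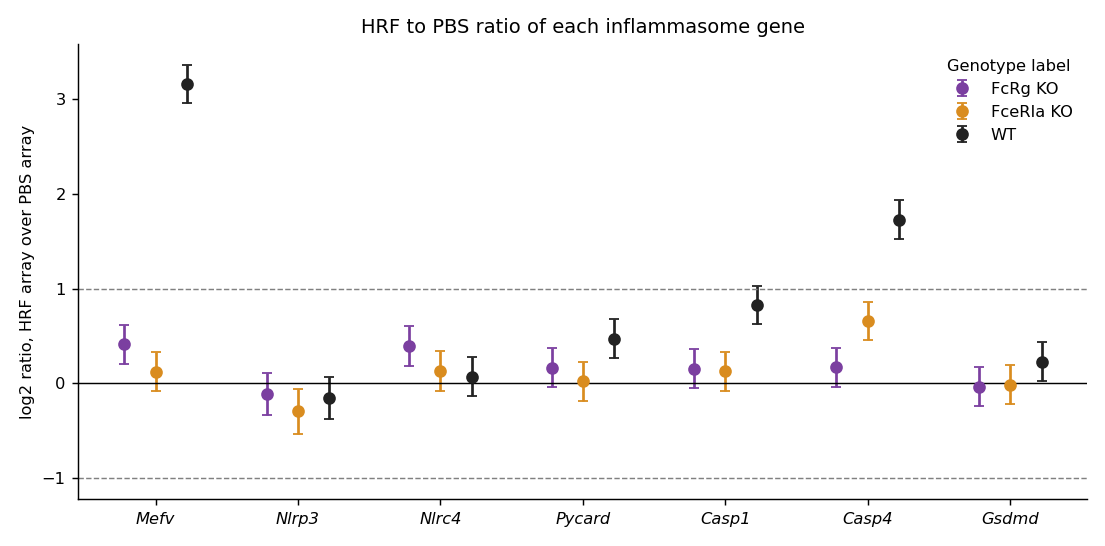
Log2 ratio of the HRF array over the PBS array (y axis) for the 7 genes (x axis), by genotype label, with bars for the scanner software's error of the ratio and dashed lines at 2-fold. In WT, Mefv (3.16) and Casp4 (1.73) lie above the upper line, and no point under either knockout label reaches it.

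Across the set, the median log2 ratio was 0.17 on the arrays labelled FcRg KO, 0.13 under the FceRIa KO label and 0.47 in WT, beside medians over all compared genes of 0.00 under FcRg KO, -0.01 under FceRIa KO and -0.05 in WT. Of the 7 members, 0 under FcRg KO, 0 under FceRIa KO and 2 in WT were at least 2-fold higher, beside 0.765%, 1.48% and 2.33% of all compared genes under the same labels. No member was at least 2-fold lower, beside 1.18% of all genes under FcRg KO, 0.46% under FceRIa KO and 1.76% in WT. The set was chosen on these ratios, so nothing is read from its count against that background.

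On the HRF arrays, 2 of 7 members, Mefv and Casp4, were at least 2-fold lower under each knockout label than in WT, where 3.01% of all genes (FcRg KO) and 2.36% (FceRIa KO) were. No member was at least 2-fold higher there, beside 0.987% and 1.07% of all genes. On the PBS arrays 0 of 7 members were at least 2-fold off WT in either direction. The background there was 0.691% higher and 3.04% lower for FcRg KO, and 0.535% higher and 2.88% lower for FceRIa KO. These comparisons share the WT arrays, and whether the HRF response of a member differs between labels was not tested.

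The share of higher genes among those past 2-fold depended on the processing. For HRF against PBS it was 39.4% under FcRg KO (25.5% with normexp), 76.3% under FceRIa KO (87.4% with normexp) and 56.9% in WT (83.7% with scaling on the median, 89.6% with normexp). On the PBS arrays it was 18.5% for FcRg KO against WT (49.3% and 50%) and 15.7% for FceRIa KO against WT (34.6% and 48.1%), with scaling on the median first and normexp second. On the HRF arrays it was 24.7% for FcRg KO against WT (14.5% with normexp). Scaling on the median put the median ratio of all genes at 0.17 in WT. On the PBS arrays it put that median at 0.26 for FcRg KO and 0.20 for FceRIa KO against WT.

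Other genes of the pathway were taken from 6 lists, of which 73 genes were measured. At least 2-fold higher with HRF were 1 of 73 on the arrays labelled FcRg KO, 6 of 73 under the FceRIa KO label and 13 of 73 in WT, beside 0.765% of all compared genes under FcRg KO, 1.48% under FceRIa KO and 2.33% in WT. These shares are the background for the counts of single lists as well. The lists were chosen with earlier results of these data known, so nothing is read from their counts against that background. None of the 73 was at least 2-fold lower under any label. Their median log2 ratio was 0.06 under FcRg KO, 0.13 under FceRIa KO and 0.44 in WT. The average HRF effect over the 3 labels was tested with limma over 17605 genes, where 0.0% of genes passed in either direction. Of the 73, 0 were higher and 0 lower at an adjusted p under 0.05, 12 had an unadjusted p under 0.05, and the lowest adjusted p was 0.557. Over all 17605 genes, 1552 had an unadjusted limma p under 0.05. Because of how the lists were chosen, nothing is read from the 12 either.

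The list with the most genes past 2-fold under FceRIa KO and in WT, but not under FcRg KO, held cytokines with their receptors and decoys. Its cytokines are Il1b and Il18, the precursors cut by caspase-1, with Il1a and Il33. Il18 was not past 2-fold under any label, with a log2 ratio of -0.02 in WT. Of 11 genes, 0 were at least 2-fold higher on the arrays labelled FcRg KO, 3 under the FceRIa KO label and 6 in WT. Il1b, the precursor of IL-1β, stood at 0.79 and 0.93 on the HRF and PBS arrays labelled FcRg KO, 2.03 and 0.93 under the FceRIa KO label, and 2.96 and 0.20 in WT. Its highest arrays were thus HRF in WT and HRF under FceRIa KO, and its log2 ratios were -0.14 under FcRg KO, 1.10 under FceRIa KO and 2.75 in WT. Il1rn, which encodes the receptor antagonist, had log2 ratios of 0.72 under FcRg KO, 1.01 under FceRIa KO and 1.55 in WT. Il33, an alarmin of barrier cells, had 0.18 under FcRg KO, 0.53 under FceRIa KO and 1.54 in WT. Il1a, whose product acts without caspase-1, had -0.02 under FcRg KO, 1.35 under FceRIa KO and 1.35 in WT.

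The list for the caspase-11 route holds interferon-inducible GTPases (Gbp and Irgm genes with Igtp), with 2 interferon receptor chains. Of its 10 genes, 0 were at least 2-fold higher on the arrays labelled FcRg KO, 0 under the FceRIa KO label and 3 in WT. Gbp5 stood at -0.14 and -0.35 on the HRF and PBS arrays labelled FcRg KO, 0.42 and -0.39 under the FceRIa KO label, and 2.05 and 0.68 in WT. Its PBS level was already higher in WT than under either knockout label. Its log2 ratios were 0.21 under FcRg KO, 0.81 under FceRIa KO and 1.37 in WT. Gbp6 had 0.09 under FcRg KO, 0.30 under FceRIa KO and 1.21 in WT. Igtp and Gbp2 followed the same pattern, with the HRF to PBS ratio near 0 under FcRg KO and largest in WT. Igtp had -0.05 under FcRg KO, 0.62 under FceRIa KO and 1.09 in WT. Gbp2, just short of 2-fold in WT, had -0.08 under FcRg KO, 0.55 under FceRIa KO and 0.97 in WT. On the PBS arrays the list median against WT was -0.05 for FcRg KO and -0.47 for FceRIa KO. Above 0 there were 4 of the 10 genes for FcRg KO and 2 for FceRIa KO.

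Among 12 priming receptors and adaptors, 0 were at least 2-fold higher on the arrays labelled FcRg KO, 2 under the FceRIa KO label and 3 in WT. Tnf, a cytokine that primes cells through NF-kB, had log2 ratios of -0.18 under FcRg KO, 2.25 under FceRIa KO and 1.55 in WT. Cd14, the co-receptor for lipopolysaccharide, had -0.17 under FcRg KO, 1.95 under FceRIa KO and 1.70 in WT. Both ratios were thus larger under FceRIa KO than in WT, unlike those of Mefv and Casp4, and this difference was not tested. Tlr2, a receptor for bacterial lipopeptides, had 0.10 under FcRg KO, 0.99 under FceRIa KO and 0.73 in WT. Ly96, the partner of Tlr4, had 0.74 under FcRg KO, 0.15 under FceRIa KO and 0.81 in WT.

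Of 14 other sensors, 1 was at least 2-fold higher on the arrays labelled FcRg KO, 0 under the FceRIa KO label and 0 in WT. That gene is Nlrp1b, a sensor of anthrax lethal factor, with log2 ratios of 1.73 under FcRg KO, -0.77 under FceRIa KO and 0.39 in WT. Its FcRg KO ratio rests on a low PBS level of -5.06, against -3.86 in WT, and it has near-identical relatives whose RNA its probe could bind. Nlrp1a had ratios of 0.35 under FcRg KO, 0.32 under FceRIa KO and 0.54 in WT. Nlrx1, a mitochondrial relative, had -0.11 under FcRg KO, -0.15 under FceRIa KO and -0.66 in WT. Nlrp10 had -0.54 under FcRg KO, -0.26 under FceRIa KO and -0.20 in WT, and like Nlrx1 it lay below 0 under all 3 labels.

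Among 14 regulators and pyrin partners, 0 were at least 2-fold higher on the arrays labelled FcRg KO, 1 under the FceRIa KO label and 1 in WT. That gene was Tnfaip3 in both cases, which encodes the NF-kB inhibitor A20, with log2 ratios of 0.22 under FcRg KO, 1.36 under FceRIa KO and 1.37 in WT. Pstpip1, which binds pyrin, had -0.12 under FcRg KO, 0.15 under FceRIa KO and 0.61 in WT. Panx1, a channel for ATP, had 0.14 under FcRg KO, 0.18 under FceRIa KO and 0.56 in WT. Casp12, a relative of Casp1 and Casp4, had 0.07 under FcRg KO, 0.34 under FceRIa KO and 0.70 in WT. Of 12 other gasdermin, caspase and membrane rupture genes, 0 reached 2-fold under any label. Gsdme, another gasdermin, had log2 ratios of 0.08 under FcRg KO, 0.26 under FceRIa KO and 0.89 in WT. Ripk1, a kinase of cell death signalling, had 0.00 under FcRg KO, 0.21 under FceRIa KO and 0.57 in WT. Casp8, an initiator of apoptosis, had 0.36 under FcRg KO, 0.20 under FceRIa KO and 0.32 in WT. Bid, which it cuts, had 0.17 under FcRg KO, 0.48 under FceRIa KO and 0.47 in WT.

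**Figure D4:**
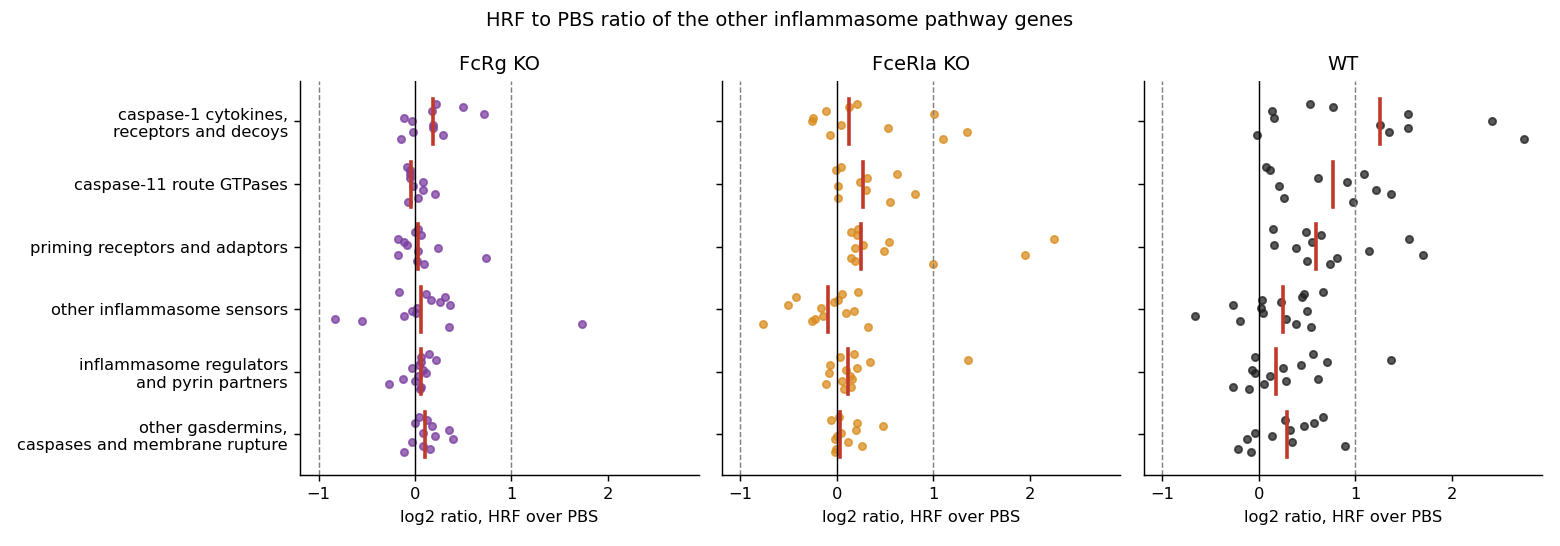
Log2 ratio of the HRF array over the PBS array (x axis) for the genes of 6 pathway lists (rows), 1 point per gene, a red bar at each list's median, and dashed lines at 2-fold, in a panel per genotype label. In WT the list of cytokines, receptors and decoys has a median of 1.26 and the GTPase list 0.77. Under FcRg KO every list median lies between -0.04 and 0.18.

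Marker genes of cells that carry inflammasomes also differed between the arrays. Of 12 neutrophil markers, 2 were at least 2-fold higher with HRF on the arrays labelled FcRg KO, 0 under the FceRIa KO label and 5 in WT, and 10 of the 12 lay above 0 in WT. Of all compared genes, 0.765% under FcRg KO, 1.48% under FceRIa KO and 2.33% in WT were at least 2-fold higher. Above 0 in WT were 42.7% of them. These shares are the background for the other marker lists as well. The median log2 ratio of the list was 0.10 under FcRg KO, 0.15 under FceRIa KO and 0.88 in WT. Against the WT PBS array, the list median was 0.70 for FcRg KO and 0.88 for FceRIa KO on the PBS arrays. Against the WT HRF array, it was -0.12 for FcRg KO and 0.34 for FceRIa KO on the HRF arrays. The larger WT ratio thus went with lower WT PBS levels. The markers with the highest levels are given first. S100a9, a calcium-binding protein of neutrophils, had log2 ratios of 0.33 under FcRg KO, 0.40 under FceRIa KO and 0.80 in WT. Its partner S100a8 had 0.26 under FcRg KO, 0.29 under FceRIa KO and 1.68 in WT. Csf3r, the receptor for the growth factor G-CSF, had 0.19 under FcRg KO, -0.23 under FceRIa KO and -0.80 in WT. The summed signal of the list, in units of the array's 75th percentile, was 241.6 and 203.3 on the HRF and PBS arrays labelled FcRg KO, 299.2 and 262.9 under the FceRIa KO label, and 219.5 and 183.3 in WT. These sums rest mainly on S100a9, Csf3r and S100a8. Cxcr2, Retnlg, Cxcr1 and Padi4, named after their values were seen, were like Mefv and Casp4 highest on the WT HRF array. Padi4 was so by little, at -0.31 against -0.42 on the PBS array labelled FcRg KO. Of the 12 markers, 8 were higher on the HRF array labelled FceRIa KO than on the WT HRF array, among them S100a8 and S100a9. Cxcr2, a chemokine receptor of neutrophils, stood at -1.49 and -1.30 on the HRF and PBS arrays labelled FcRg KO, -1.15 and -0.76 under the FceRIa KO label, and 0.17 and -2.12 in WT. The WT log2 ratios were 2.29 for Cxcr2, 1.86 for Retnlg, 1.34 for Cxcr1 and 1.04 for Padi4. Ngp and Camp, granule genes made in immature neutrophils, had 1.25 and 1.34 under FcRg KO, 0.30 and 0.16 under FceRIa KO, and 0.17 and 0.12 in WT. Over all lists, all markers measured were well above background on all 6 arrays.

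Of 10 monocyte and macrophage markers, 0 were at least 2-fold higher under FcRg KO, 0 under FceRIa KO and 2 in WT, and the sum lay between 132.1 and 138.5 on the HRF arrays, against 113.6 to 126.1 on the PBS arrays. Csf1r, a growth factor receptor, had log2 ratios of 0.11 under FcRg KO, 0.20 under FceRIa KO and 0.28 in WT. Lyz2, lysozyme, had 0.23 under FcRg KO, 0.40 under FceRIa KO and -0.06 in WT. Itgam, an integrin chain, had 0.19 under FcRg KO, -0.02 under FceRIa KO and -0.24 in WT. Of 9 alveolar macrophage markers, 0 under FcRg KO, 1 under FceRIa KO and 1 in WT were at least 2-fold higher, with sums between 229.7 and 358.4 on the HRF arrays and between 202.3 and 241.2 on the PBS arrays. Chil3 had 0.77 under FcRg KO, 0.07 under FceRIa KO and 0.29 in WT. Ear2 had 0.42 under FcRg KO, -0.75 under FceRIa KO and 0.31 in WT. Car4 had 0.02 under FcRg KO, 0.42 under FceRIa KO and 0.20 in WT. Of 5 eosinophil markers, 2 under FcRg KO, 0 under FceRIa KO and 1 in WT were at least 2-fold higher, with sums between 3.72 and 4.65 on the HRF arrays and between 3.06 and 4.43 on the PBS arrays. Those under FcRg KO were Prg2 (log2 ratio 1.57) and Epx (1.42), the latter named after its values were seen. The marker past 2-fold in WT was Ccr3 (1.78). The part of these cells in the levels of the 7 genes was not tested.

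Genes whose pattern over the 6 arrays was most like that of Mefv or Casp4 were sought among 15672 genes, by the root mean square difference after centring each gene on its own mean. Nearest to Mefv were Tnfsf11 (0.28 log2 units), Il2ra (0.29) and Htr7 (0.33). Tnfsf11 was dim, between -5.82 and -5.51 on all arrays but WT HRF. The lowest signals well above background lay between -6.76 and -6.29. The software's error of its HRF to PBS ratios was between 0.26 and 0.34, so nothing is read from the order of these 3 genes. Tnfsf11 encodes the cytokine RANKL, Il2ra a chain of the interleukin-2 receptor and Htr7 a serotonin receptor. The log2 ratio of HRF to PBS was 0.30 under FcRg KO, 0.11 under FceRIa KO and 2.31 in WT for Tnfsf11. It was -0.02 under FcRg KO, 0.47 under FceRIa KO and 2.45 in WT for Il2ra. For Htr7 it was 0.43 under FcRg KO, 0.95 under FceRIa KO and 2.42 in WT. The WT ratios of all 3 were below the 3.16 of Mefv. Nearest to Casp4 were Ptafr, the receptor for platelet-activating factor (0.08), Tnip3, an NF-kB regulator (0.08), and Slc39a14, a zinc transporter (0.11). The distances for Casp4 and Mefv are not set against each other, because levels were not scaled and the distance grows with a gene's range. Over the 6 arrays that range was 3.16 log2 units for Mefv and 1.88 for Casp4.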

How the data were processed

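Cy3-labelled total RNA of whole lung was hybridised to 1-colour Agilent arrays and read with Agilent Feature Extraction 10.7.3.1 on a design annotated on mm9, per the file headers. The deposited processed signal is an intensity, background-subtracted and detrended within each array, and not scaled between arrays, per the file headers. A deposited value table holds log2 values, rounded to 1 decimal, whose centring per probe stays unknown. Its column median was 0.1 for WT PBS and 0 for each other array. Differences within a genotype correlated across probes with the scanner files (r between 0.997 and 0.998), so its direction and log2 scale match. All 6 arrays lie on 1 slide scanned once, so no batch could be compared.

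Each processed signal was divided by its array's 75th percentile, taken over all spots other than controls, and put on the log2 scale. Control and outlier spots were left out, and spots of 1 probe averaged. Of 55681 probes, 26056 were named through their RefSeq accession with the RefSeq gene table of GRCm38.p6, giving 19752 genes. For the 5270 genes with several probes, that with the highest mean was used. A comparison of 2 arrays kept genes that either array measured well above background. On the dimmer array, a signal not well above background was raised to the lowest one that was, where it lay under it.

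With 1 array per group there is no test within a genotype. The average HRF effect was fitted with limma 3.58.1 in R 4.3.3 (lmFit, eBayes, genotype and challenge additive, 2 residual degrees of freedom, Benjamini-Hochberg 0.05), whose residual is the genotype by challenge interaction. Its p-values therefore do not measure the spread between mice. The scripts were tested on simulated data.

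The members and the lists were chosen with earlier results of these data known. Named are all members, up to 4 genes per pathway list with the largest mean ratio over the 3 labels, the 3 markers per list with the highest mean level, and the 3 genes nearest in pattern to each member past 2-fold in WT. Genes of the lists not named on the array here are not analysed here. Alternatives were normexp (offset 50) with quantile normalization, the value table, scaling on the median, no filter or a stricter filter on dim probes, the mean of all probes of a gene, and limma without each genotype label.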

Additional observations from a re-analysis of the deposited data

Results flagged for a closer look

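Among the genes named here, 5 had an HRF to PBS ratio that lay below 0 under the FceRIa KO label and above 0 in WT, each beyond the scanner software's error. Nlrp1b stood at a log2 ratio of 1.73 under FcRg KO, -0.77 under FceRIa KO and 0.39 in WT. Ear2, a ribonuclease gene used as an alveolar macrophage marker, stood at 0.42 under FcRg KO, -0.75 under FceRIa KO and 0.31 in WT. Il1r2 stood at -0.26 under FceRIa KO and 2.41 in WT, and Cxcr2 at -0.39 under FceRIa KO and 2.29 in WT. The PBS levels of Il1r2 and Cxcr2 were lower in WT than under either knockout label. Fcer1a stood at 0.32 under FcRg KO, -0.26 under FceRIa KO and 0.28 in WT. With 1 array per group, none of these differences was tested. None of the 7 inflammasome genes met this condition.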

How the results depend on the processing

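No paired analysis was possible because each group has 1 array. Mefv and Casp4 stayed at least 2-fold higher in WT and at least 2-fold lower under both knockout labels on the HRF arrays in all 7 settings. These include the setting reported. Leaving out the filter or making it stricter could not move a member, because all member probes were well above background on every array. The WT log2 ratio lay between 2.85 and 3.38 for Mefv and between 1.60 and 1.95 for Casp4, and no member's called ratio changed sign. Scaling on the median added Casp1 to the members past 2-fold in WT. Under the alternatives, 28 member ratios moved by more than the software's error and 266 did not, where the latter include all ratios of the filter settings. Limma gave 0 genes in either direction in each of the 10 settings, 3 of which left out a genotype label, with 838 to 1979 genes at an unadjusted p under 0.05 and lowest adjusted p-values between 0.279 and 0.902.

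Counts of all genes past 2-fold depended on the processing, and the cause was not tested. For HRF against PBS, normexp gave 27 higher and 79 lower under FcRg KO, 118 and 17 under FceRIa KO, and 35 lower in WT, against 127 and 195, 242 and 75, and 307 in the setting reported. The value table gave 226 higher and 299 lower under FcRg KO, 155 lower under FceRIa KO and 538 lower in WT. Without a filter there were 483 higher and 508 lower under FcRg KO, 587 and 306 under FceRIa KO, and 920 lower in WT. Scaling on the median gave 617 higher and 120 lower in WT, against 406 and 307. The stricter filter, with fewer genes, gave 34 lower under FceRIa KO and 186 lower in WT.

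On the PBS arrays against WT, FcRg KO had 120 higher and 528 lower, and FceRIa KO 93 and 501. Lower counts were 82 and 41 with normexp and 1075 and 1216 with the value table, and normexp gave 38 higher for FceRIa KO. Scaling on the median gave 275 higher and 283 lower for FcRg KO, and 151 and 285 for FceRIa KO. Without a filter there were 195 higher and 1660 lower for FcRg KO, and 175 and 1833 for FceRIa KO. The stricter filter gave 291 lower for FcRg KO, and 59 higher and 215 lower for FceRIa KO.

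On the HRF arrays against WT, FcRg KO had 167 higher and 510 lower, and FceRIa KO 181 and 398. Normexp gave 50 higher and 295 lower for FcRg KO, and 57 and 169 for FceRIa KO. The value table gave 789 and 815 lower. Without a filter there were 336 higher and 1164 lower for FcRg KO, and 363 and 1269 for FceRIa KO. The number of arrays, 1 per group, limits the precision of every ratio.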

Other observations

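Aim2, a sensor of DNA in the cytosol, was chosen here after its values were seen. Its levels were -4.05 and -4.06 on the HRF and PBS arrays labelled FcRg KO, -2.28 and -2.11 under the FceRIa KO label, and -3.62 and -3.64 in WT. Both arrays labelled FceRIa KO were higher than all others, with log2 differences from WT of 1.34 on the HRF arrays and 1.53 on the PBS arrays, while HRF and PBS lay close together under every label. Aim2 lies on chromosome 1, as does Fcer1a, which was also higher on both of these arrays. Il18, the other cytokine precursor cut by caspase-1, had log2 HRF to PBS ratios of 0.29 under FcRg KO, -0.07 under FceRIa KO and -0.02 in WT. Those of Il1b were -0.14 under FcRg KO, 1.10 under FceRIa KO and 2.75 in WT, so the gap was largest in WT. Among receptors chosen in the same way, Il1r2, the decoy receptor of IL-1, had ratios of -0.03 under FcRg KO, -0.26 under FceRIa KO and 2.41 in WT. Its PBS level was lower in WT, at -3.13, than under FcRg KO, at -2.31, or FceRIa KO, at -1.78. Its WT HRF level was -0.72. Il1r1, the signalling receptor, had ratios of 0.18 under FcRg KO, 0.04 under FceRIa KO and 1.26 in WT.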
